A study of Homo sapiens with 4 samples.

Results

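The genes described here are 36 listed enzymes and regulators of antioxidant defence, most of them known targets of the transcription factor NRF2, read in human lung adenocarcinoma cells labelled as carrying a vector for adenylate kinase 4 (AK4) or an shRNA against it. A member was read from every probe set whose single gene symbol in the platform annotation was on the list. Of the 36, 34 had such a probe set, out of 19775 genes named on the array, and they were read by 68 of its 54675 probe sets. AKR1B1 and PRDX5 were not read. Total RNA from 4 cultures was hybridised to Affymetrix expression arrays, with 1 array in each group. CL1-5 cells carried an shRNA vector against AK4 or a non-silencing shRNA vector. CL1-0 cells carried an AK4 vector or a control vector. CL1-5 was derived from CL1-0 and is the more invasive of the pair, and AK4 is a mitochondrial enzyme that moves phosphate groups between nucleotides. Per the labels, all cultures were stably transduced and selected with puromycin for 2 weeks. The labels do not give the promoter of the AK4 vector, the shRNA sequence or whether clones or pools were used. With 1 array a group no replicate error and no p-value can be given, so a gene is called higher or lower only at a 2-fold difference, and the share of all measured genes past 2-fold is printed as the background.

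In unstressed cells KEAP1 holds NRF2 (gene NFE2L2) in the cytoplasm and hands it to a ubiquitin ligase for degradation. Oxidants and electrophiles modify KEAP1, NRF2 then enters the nucleus, pairs with a small MAF protein and binds the antioxidant response element of its target genes, while BACH1 competes for the same sites and represses them. The targets make glutathione and NADPH, reduce thioredoxin and peroxiredoxins, and clear quinones and haem. Activation of this pathway by mutation of KEAP1 or NFE2L2 is a known feature of many lung cancers.

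The core of the antioxidant response element, written TGACNNNGC, was searched on both strands from 250 bases before to 50 bases after the start site of each gene, in RefSeq promoters of GRCh38.p14. Of the 36 members, 28 had a promoter there, and 6 of them (21.4%) held the core, against 16.1% of all 27305 genes in the table. HMOX1, AKR1B10, GSS, GSR, TXN2, PRDX1, PRDX6 and SOD1 are not in it. The 28 members had 41 promoters and all 27305 genes had 35116, and a core in any promoter of a gene counted. Sequence outside these bases was not searched, and membership of the list does not rest on a match. The windows below show each match in the orientation of the gene, with the core or its reverse complement in capitals. A match is a description of sequence, not of binding.
GCLM, reverse complement, chr1:93909446-93909474, minus strand: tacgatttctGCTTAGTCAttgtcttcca
GPX2, reverse complement, chr14:64942849-64942877, minus strand: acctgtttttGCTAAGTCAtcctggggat
GSTP1, core, chr11:67583736-67583764, plus strand: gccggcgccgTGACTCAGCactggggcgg
TXNRD1, core, chr12:104215670-104215698, plus strand: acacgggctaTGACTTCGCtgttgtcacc
TXNRD1, reverse complement, chr12:104215761-104215789, plus strand: gcgtccttcgGCTCCGTCAgttcccacag
TXNRD1 second start, reverse complement, chr12:104286920-104286948, plus strand: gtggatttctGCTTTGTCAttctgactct
PGD, reverse complement, chr1:10398853-10398881, plus strand: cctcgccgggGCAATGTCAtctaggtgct
KEAP1, core, chr19:10502807-10502835, minus strand: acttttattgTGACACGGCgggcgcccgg
KEAP1, reverse complement, chr19:10502784-10502812, minus strand: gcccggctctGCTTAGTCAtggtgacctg

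Signals below are intensities after each array was scaled to a common trimmed mean, given for 1 probe set at a time. They are averages over a culture, so fewer cells with the RNA and less RNA per cell cannot be told apart. Values under a floor of 6.93 were set to it before log2 ratios were taken. A gene is represented by its brightest probe set, and a comparison includes it if 1 or both of its 2 arrays exceeded the floor. Of the 34 members, 30 were above the floor on all 4 arrays. AKR1B10 and GPX3 were above it on none.

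The brightest of the 4 AK4 probe sets read 442 with AK4 shRNA and 1056 with non-silencing shRNA in CL1-5, a log2 ratio of -1.25. In CL1-0 it read 111 on the array labelled AK4 vector and 115 on the control vector array, a log2 ratio of -0.05, and all 4 probe sets gave ratios from -0.25 to -0.05. No AK4 signal was thus higher on that array, "AK4 vector" below means its label, and all directions taken from it rest on that label. The 3' to 5' signal ratio of beta-actin, which grows as RNA degrades, was 1.61 with AK4 shRNA and 1.34 with non-silencing shRNA in CL1-5, and 6.54 with AK4 vector and 6.04 with control vector in CL1-0. For GAPDH the same ratio was 1.07, 1.04, 1.54 and 1.25 in that order. The labels name a type II alveolar cell. Of 10 markers of that cell, 8 had a probe set, and 5 of these were above the floor with either CL1-5 construct, 6 with AK4 vector and 7 with control vector in CL1-0. The surfactant gene SFTPC read 24.0, 26.3, 30.8 and 28.2 in that order, and the phosphate transporter SLC34A2 was under the floor on all 4 arrays. Of 6 leukocyte markers, 4 had a probe set. Of these, PTPRC was under the floor on all 4 arrays, CD3E was just above it on all 4, at 7.01 to 8.26, and CD14 was above it with non-silencing shRNA alone, at 7.82.

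The comparison in CL1-0 was set up to ask which members differ with an AK4 vector, on an array that shows no higher AK4 signal. HMOX1 and SRXN1 were lower on the array labelled AK4 vector, and TKT and GPX1 were higher. The other 27 of 31 measured members lay between -0.50 and 0.95 on the log2 scale. Thus 2 of 31 members (6.45%) were at least 2-fold lower, where the background was 1.16% of 14681 measured genes, and 2 (6.45%) were past 2-fold higher, where it was 3.22%. In either direction the background was 4.39%. The members' median log2 ratio was 0.08 and that of all measured genes 0.05. Whether these differences exceed the spread between cultures cannot be tested. As a description of scatter within the arrays, the SD of log2 ratios between probe sets of the same gene was 0.41.

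HMOX1 encodes heme oxygenase, which breaks haem down to biliverdin, iron and carbon monoxide. Its only probe set read 138.0 with AK4 shRNA and 115 with non-silencing shRNA in CL1-5, against 1462 with AK4 vector and 2991 with control vector in CL1-0. The CL1-0 arrays were both far above the CL1-5 arrays, and within CL1-0 the AK4 vector array was 2.05-fold lower, a log2 ratio of -1.03. SRXN1, sulfiredoxin, restores peroxiredoxins whose active cysteine was overoxidised. Its probe set read 310 with AK4 shRNA, 325 with non-silencing shRNA, 475 with AK4 vector and 1080.0 with control vector, which is 2.27-fold lower on the AK4 vector array (log2 ratio -1.18). The control vector array of CL1-0 thus stood apart from the other 3 for SRXN1. Both genes stayed past 2-fold under the 3 other scalings, with log2 ratios from -1.06 to -1.01 for HMOX1 and from -1.21 to -1.08 for SRXN1. Each has 1 probe set, far above the floor, so the alternatives of probe set and floor could hardly move them.

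**Figure D1:**
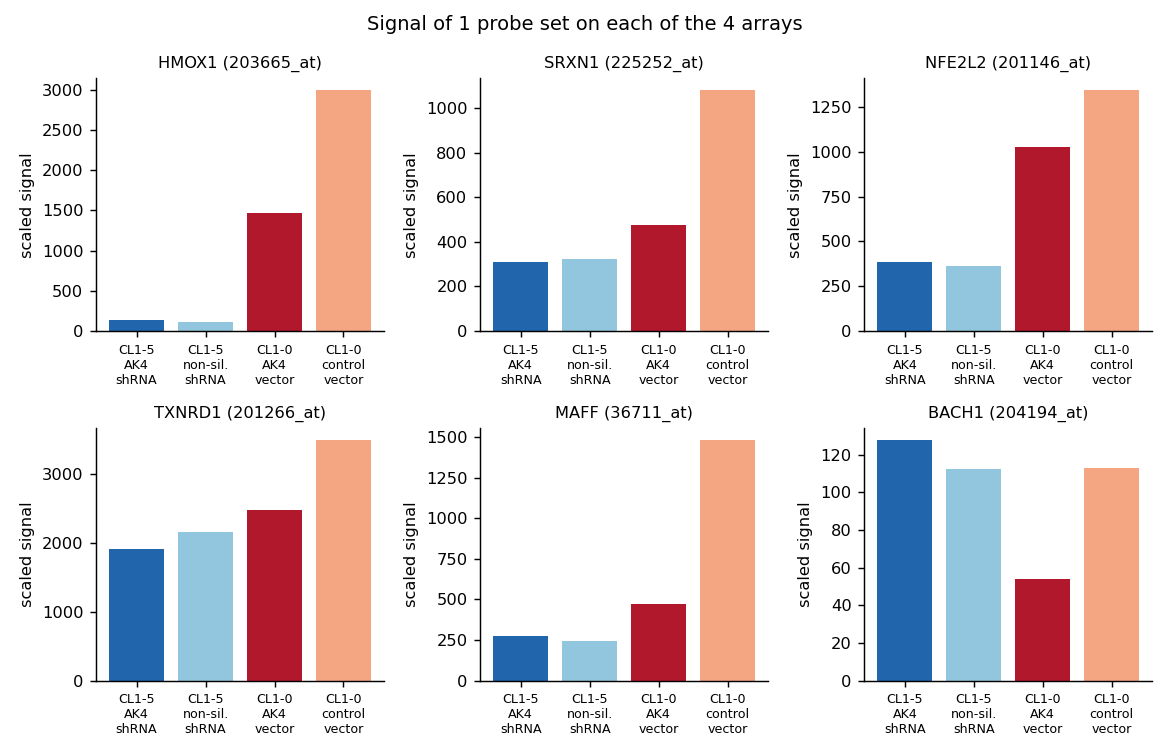
Scaled signal (linear axis from 0) of 1 probe set for each of 6 genes, 1 bar for each array, with no error bar because each group is 1 array. HMOX1, SRXN1, NFE2L2, TXNRD1 and MAFF have their highest bar on the CL1-0 control vector array, at 2991 for HMOX1, whereas BACH1 is lowest on the CL1-0 AK4 vector array, at 53.9.

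NFE2L2 itself, which encodes NRF2, read 385 with AK4 shRNA, 362 with non-silencing shRNA, 1027 with AK4 vector and 1343 with control vector. Its log2 ratio for the AK4 vector was -0.39, and its dimmer probe sets gave -0.72 and -0.78, so all 3 were lower without reaching 2-fold. KEAP1, its inhibitor, was at 0.15. Among other targets the thioredoxin reductase TXNRD1, which holds 3 of the printed cores, read 1906 with AK4 shRNA, 2161 with non-silencing shRNA, 2469 with AK4 vector and 3486 with control vector, and its log2 ratio for the AK4 vector was -0.50. NQO1, a quinone reductase and the customary marker of NRF2 activity, was not lower, with 2761 on the AK4 vector array and 2619 on the control vector array (0.08). Its other probe sets gave 0.14 and 0.48. Of all 31 measured members, 16 were above 0 and 15 below, where 8231 and 6450 of 14681 measured genes were.

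TKT, transketolase of the pentose phosphate pathway, read 1117 with AK4 shRNA, 989 with non-silencing shRNA, 890.5 with AK4 vector and 441 with control vector from its brightest probe set. Its log2 ratio for the AK4 vector was 1.01, but its second probe set gave 0.72 and its dimmest gave -0.73, and the mean of its probe sets gave 0.34. PGD, which makes NADPH in the same pathway, was at 0.62, and transaldolase TALDO1 at -0.43. GPX1, the abundant cytosolic glutathione peroxidase, had a single probe set, which read 901 with AK4 shRNA, 914 with non-silencing shRNA, 353 with AK4 vector and 156 with control vector. Its log2 ratio for the AK4 vector was 1.17, or 2.26-fold higher. That probe set ends in _s_at, a suffix for probes shared by several transcripts.

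Enzymes that make and use glutathione did not move one way in CL1-0. GCLC, the catalytic subunit of glutamate-cysteine ligase that limits glutathione synthesis, was at 0.23, and its modifier subunit GCLM at -0.26, although the other probe sets of GCLM gave 0.35 and 0.47. Glutathione synthetase GSS was at -0.30 and the transferase GSTP1 at -0.19. Glutathione reductase GSR, which regenerates glutathione with NADPH, was higher without reaching 2-fold, at 0.76, and its other probe set gave 0.69. Its signal was 372 with AK4 vector and 220 with control vector.

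Within the thioredoxin group, all 5 members had a ratio below 0 on the array labelled AK4 vector, where 6450 of 14681 measured genes did. After SRXN1 and TXNRD1 the others were the mitochondrial thioredoxin TXN2 (-0.21), the cytosolic thioredoxin TXN (-0.12) and the mitochondrial reductase TXNRD2 (-0.07). The ratios of TXN2, TXN and TXNRD2 lay inside the SD of 0.41 between probe sets. The directions of the group held under the other scalings. TXN2 gave 0.40 with its other probe set, and that of TXN, much dimmer, gave -1.14. Of the peroxiredoxins, which reduce peroxides with thioredoxin or, for PRDX6, glutathione, PRDX1, PRDX4 and PRDX6 were all at -0.08 and mitochondrial PRDX3 was at 0.16. PRDX2 was at 0.90, with 547 on the AK4 vector array and 294 on the control vector array, and each of its other probe sets was also above 0, from 0.20 to 0.76.

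Superoxide dismutases and catalase had ratios above 0 without reaching 2-fold. SOD1, which removes cytosolic superoxide, was at 0.37. Mitochondrial SOD2 was at 0.36 from 1 dim probe set, with signals of 26.0 to 33.6 over the 4 arrays, and 4 further probe sets that name SOD2 together with another gene were not used. Catalase (CAT) was at 0.63, with 300 on the AK4 vector array and 194 on each of the other 3. Of the remaining peroxidases, GPX4, which protects membrane lipids, was at 0.18 and GPX8 of the endoplasmic reticulum at -0.31 with a second probe set at 0.79. GPX2 was under the floor on both CL1-0 arrays.

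The aldo-keto reductases AKR1C1, AKR1C2 and AKR1C3, which reduce carbonyls and steroids, had low signals of 10.8 to 52.3 on all arrays. AKR1C2 was at 0.95 and AKR1C1 at 0.78 in CL1-0, and AKR1C3 at 0.12. These genes are close copies, and the probe sets used for AKR1C1 and AKR1C2 end in _x_at, so their reads cannot be assigned with certainty.

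**Figure D2:**
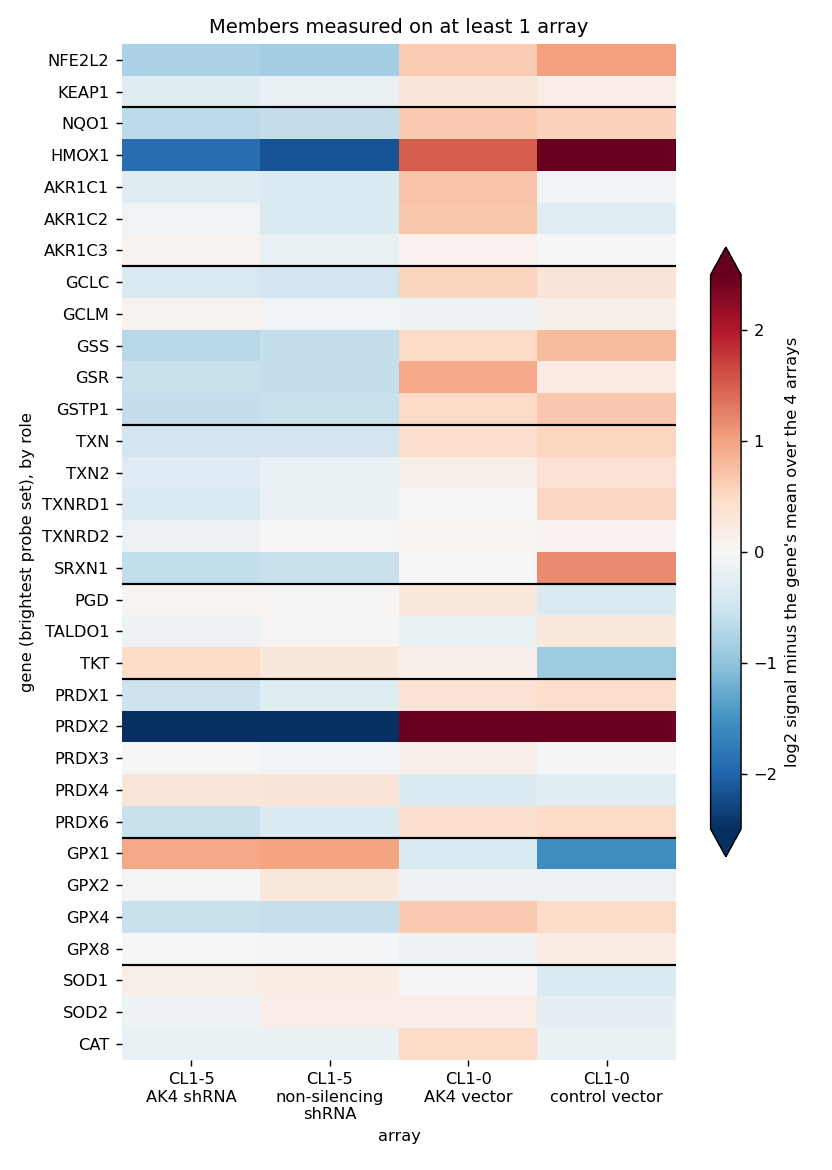
Heat map of the 32 members above the floor on at least 1 array: each row is a gene, each column an array, and the colour is its log2 signal minus its mean over the 4 arrays, with horizontal lines between roles. HMOX1 and PRDX2 differ most between the cell lines, and SRXN1 is highest on the CL1-0 control vector array; the colour scale ends at values of HMOX1 and PRDX2 that exceed it.

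The comparison in CL1-5 asked which members differ when AK4 is lowered by an shRNA. AK4 signal remained, at 442 with AK4 shRNA against 1056 with non-silencing shRNA. None of the 31 measured members reached 2-fold in either direction, and their log2 ratios ran from -0.30 to 0.29 with a median of -0.02. The background was also low, at 0.0914% of 15321 measured genes for higher, 0.0131% for lower and 0.104% for either direction. The SD of log2 ratios between probe sets of a gene was 0.22, so most of these ratios lay inside that scatter. The ratios furthest from 0 were those of SOD2 at -0.30, AKR1C3 at 0.29, GPX2 at -0.28 and HMOX1 at 0.26. Of these, SOD2, AKR1C3 and GPX2 had signals between 7.42 and 33.6, not far above the floor.

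The same roles were read side by side in CL1-5. NFE2L2 was at 0.09 and KEAP1 at -0.13. All 5 members of the thioredoxin group were at or below 0, from -0.18 for TXNRD1 to -0.0001 for TXN, although TXN was at 0.02 after cyclic loess. Over all 15321 measured genes, 7711 were below 0. Among peroxiredoxins PRDX1 and PRDX6 were both at -0.21. GCLM was at 0.18 and TKT at 0.18, TALDO1 was at -0.16, and NQO1, GSTP1, GPX1, GPX4, SOD1 and CAT all lay within 0.07 of 0. The brightest PRDX2 probe set was under the floor on both CL1-5 arrays.

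The vector and shRNA comparisons share no array, so their signs can be set beside each other. Of 30 members measured in both, 9 (30.0%) had opposite signs, where the share over all 13741 such genes was 46.0%. Lower with AK4 vector and higher with AK4 shRNA were HMOX1 (-1.03 and 0.26), NFE2L2 (-0.39 and 0.09), GCLM (-0.26 and 0.18) and GPX8 (-0.31 and 0.04). The reverse held for GPX1 (1.17 and -0.02), SOD1 (0.37 and -0.04), SOD2 (0.36 and -0.30), KEAP1 (0.15 and -0.13) and NQO1 (0.08 and -0.07). In every one of these 9 pairs the CL1-5 ratio was under 2-fold, and only HMOX1 and GPX1 reached 2-fold in CL1-0. The signs are those of the brightest probe sets. Other probe sets of GCLM (0.35 and 0.47) and GPX8 (0.79) were above 0 with AK4 vector. A dim probe set of NFE2L2 was at -0.18 with AK4 shRNA.

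**Figure D3:**
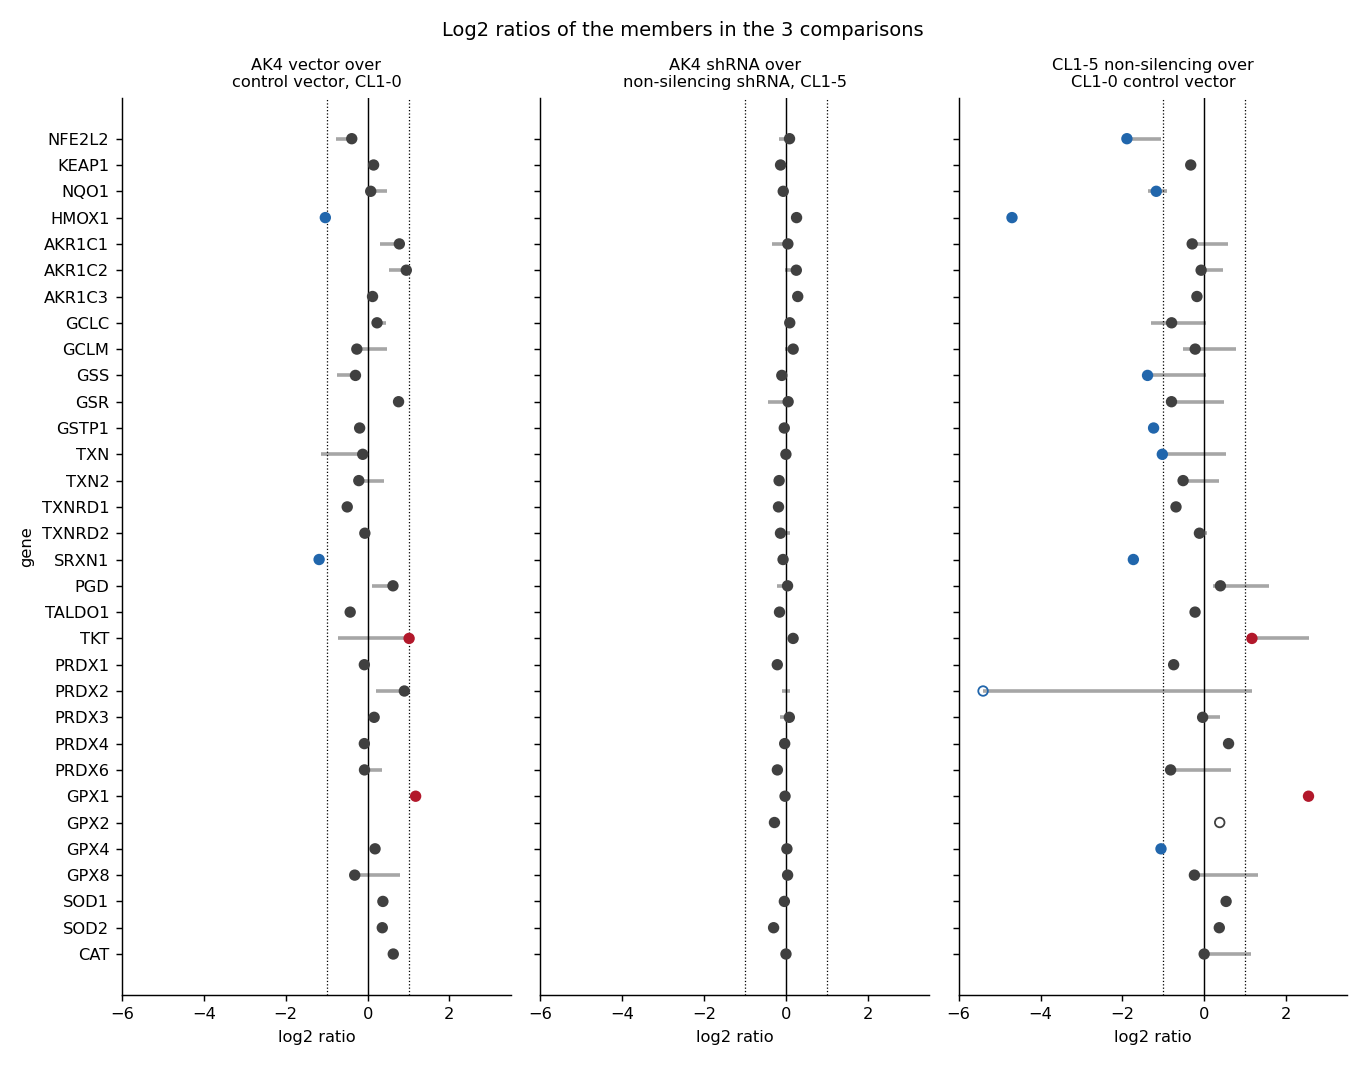
Log2 ratios of the 32 members in the 3 comparisons: points are the brightest probe set, coloured at 2-fold or more (dotted lines at -1 and 1), open where only 1 array lay above the floor, and grey bars span all measured probe sets of the gene. HMOX1 and SRXN1 pass -1 with AK4 vector, no point passes either line with AK4 shRNA, and the CL1-5 over CL1-0 panel has 9 members past -1 and 2 past 1.

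The control arrays of the sublines were compared to describe the cells in which AK4 was altered, and they share their arrays with the comparisons above. NFE2L2 and HMOX1 were lower in CL1-5. By the brightest probe set, 25 of 32 measured members had a ratio below 0, where 7027 of 15970 measured genes did. All measured probe sets were below 0 for only 11 members. With probe sets averaged, the members' median was -0.12 and that of all genes 0.18. As deposited, with no rescaling, the members' median was 0.46 and that of all genes 0.83. At 2-fold, 9 members (28.1%) were lower in CL1-5, where the background was 14.2% of measured genes. At the same limit 2 members (6.25%) were higher, where it was 17.1%, and 31.4% of genes passed in either direction. The members' median log2 ratio was -0.31 and that of all measured genes 0.13. After cyclic loess, which moved the median of all genes to -0.06 and that of the members to -0.39, 5 of 32 members were 2-fold lower where 16.5% of all genes were and 12.3% were higher. Quantile normalization gave 5 of 32, with 16.6% of all genes lower and 12.4% higher. The excess of members past 2-fold lower therefore depends on the scaling, while their median lay below that of all genes under each of these scalings. The cell lines also differ in construct type, which cannot be told apart from the line here. For beta-actin, 3' over 5' signal stood at 1.34 in CL1-5 and 6.04 in CL1-0, and for GAPDH at 1.04 in CL1-5 and 1.25 in CL1-0. The summed signal of 6 epithelial markers was 2027 in CL1-5, with 4 of them above the floor, and 51.5 in CL1-0, with 3 above it. The keratins KRT18 (1681) and KRT8 (299) made up most of the sum in CL1-5, where EPCAM and CDH1 were under the floor. The alveolar type II markers summed to 137 in CL1-5 and 401 in CL1-0, a gap carried mostly by LAMP3, under the floor in CL1-5 and at 210.0 in CL1-0, while NAPSA was higher in CL1-5 (log2 ratio 1.05). The part of these differences in the members' values was not tested.

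HMOX1 differed most among members whose signal was above the floor on both arrays, at 115 in CL1-5 and 2991 in CL1-0, which is 26.0-fold lower in CL1-5 (log2 ratio -4.70). NFE2L2 was 3.71-fold lower (-1.89), at 362 in CL1-5 and 1343 in CL1-0, and its dim probe sets gave -1.80 and -1.06. SRXN1 was at -1.73. On the other pair of arrays, CL1-5 with AK4 shRNA over CL1-0 with AK4 vector, these ratios were -3.40, -1.41 and -0.62, a comparison added after the values were seen. HMOX1 and NFE2L2 stayed past 2-fold under the 3 other scalings, and SRXN1 was at -0.86 as deposited.

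NQO1 read 1162 in CL1-5 and 2619 in CL1-0, a log2 ratio of -1.17, with -0.92 and -1.38 for its other probe sets. GSTP1, a transferase abundant in lung tumours, was at 784 and 1849 (-1.24), GSS at 291 and 760 (-1.39), TXN at 1697 and 3453 (-1.02) and GPX4 at 1023 and 2129 (-1.06), CL1-5 first each time. These 5 were lower in CL1-5 by the brightest probe set, but none kept 2-fold under every alternative. After cyclic loess NQO1 was at -0.68, GSTP1 at -0.82, TXN at -0.48 and GPX4 at -0.59. GSS was at 0.04 and TXN at 0.52 with their second probe sets.

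GPX1 and TKT went the other way. GPX1 read 914 in CL1-5 and 156 in CL1-0, 5.85-fold higher (log2 ratio 2.55). TKT read 989 in CL1-5 and 441 in CL1-0 (1.17), and its other probe sets gave 2.05 and 2.55. On the other pair of arrays GPX1 was at 1.35 and TKT at 0.33, so TKT did not reach 2-fold there.

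PRDX2 could not be given 1 direction. Its brightest probe set was under the floor in CL1-5 and read 294 in CL1-0, so the ratio of -5.40, at least 42.4-fold lower in CL1-5, holds for that probe set and this scaling only. Another probe set gave -2.02, whereas the remaining ones gave 0.55 and 1.18. PRDX6 (-0.82 and 0.66), GSR (-0.80 and 0.47), TXN2 (-0.52 and 0.35), GPX8 (-0.24 and 1.30) and GCLM (-0.22, -0.52 and 0.77) also had probe sets on both sides of 0. In all, 8 members had at least 1 probe set above 0.1 and 1 below -0.1 between the cell lines, against 4 members with AK4 vector and 1 with AK4 shRNA.

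**Figure D4:**
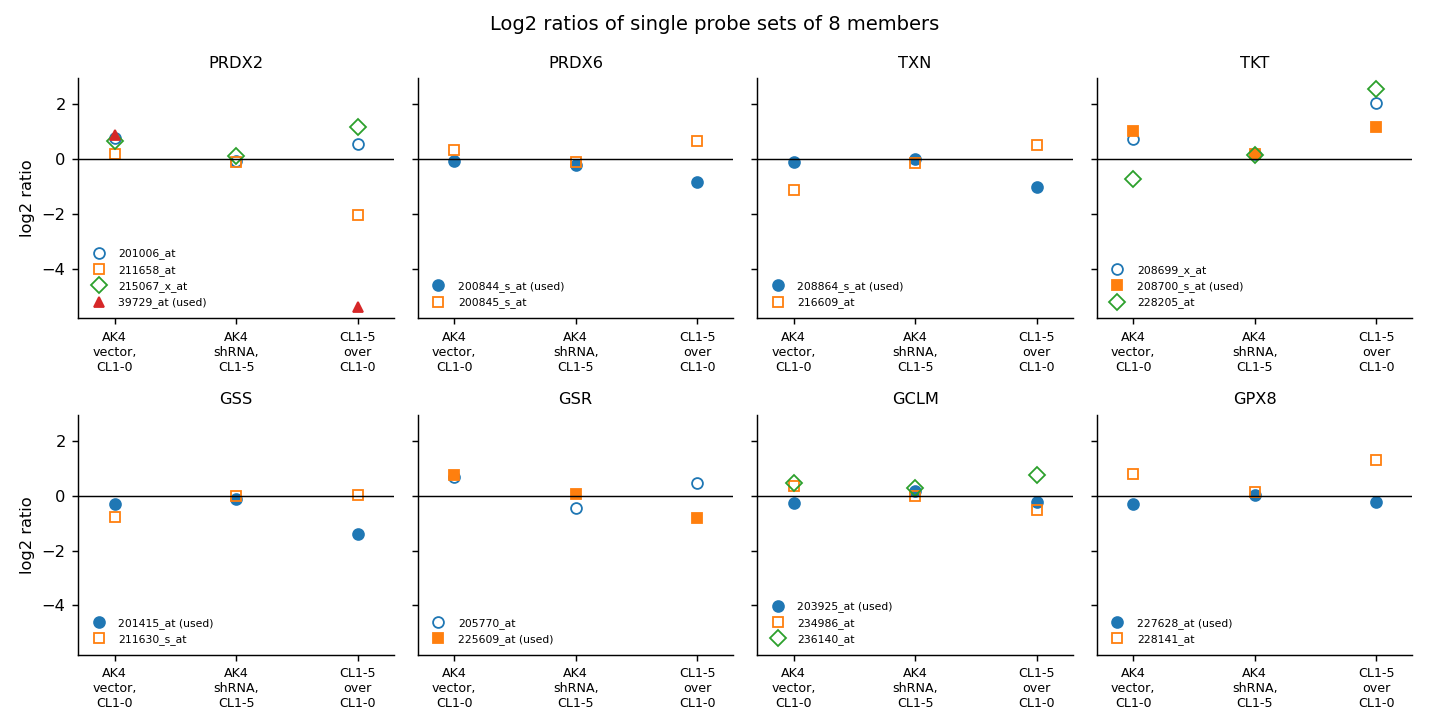
Log2 ratio of each probe set above the floor on at least 1 array for 8 members, in the 3 comparisons, with filled symbols for the probe set used. PRDX2 runs from -5.40 to 1.18 between the cell lines, TKT from -0.73 to 1.01 with AK4 vector, and the probe sets lie between -0.43 and 0.30 with AK4 shRNA.

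By their brightest probe sets the other members were under 2-fold between the control arrays, from -0.82 to 0.59. GCLC was at -0.80, PRDX1 at -0.75, TXNRD1 at -0.69, KEAP1 at -0.33, AKR1C1 at -0.29, TALDO1 at -0.22, AKR1C3 at -0.18, TXNRD2 at -0.12 and AKR1C2 at -0.08. With its second measured probe set GCLC was at -1.29, past 2-fold. Other probe sets of AKR1C1 ran from -0.38 to 0.58, and the second measured one of AKR1C2 gave 0.47. PRDX3 was at -0.04 and CAT at -0.0015, but a dimmer probe set of CAT gave 1.16, also past 2-fold. Above 0 were PRDX4, the peroxiredoxin of the endoplasmic reticulum, at 0.59, SOD1 at 0.53, PGD at 0.39, GPX2 at 0.38 and SOD2 at 0.37. A dim probe set of PGD gave 1.57, past 2-fold, with CL1-0 under the floor. GPX2 was above the floor in CL1-5 only, at 9.01.

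Further genes of the pathway were read from lists by function, and those named are mostly the ones with the largest ratios in each list. The lists were chosen with earlier results of these data known. A share past the background therefore describes a list and tests nothing. Counts for these lists were taken under the trimmed-mean scaling only, so their dependence on the scaling was not tested. Over all measured genes, 3.22% were at least 2-fold higher and 1.16% lower with AK4 vector, and 17.1% higher and 14.2% lower in CL1-5 against CL1-0. Of 13 measured regulators other than NFE2L2 and KEAP1, 2 (15.4%) were at least 2-fold lower with AK4 vector, where the background was 1.16%, and 0 were higher. MAFF, a small MAF protein, read 274 with AK4 shRNA, 246 with non-silencing shRNA, 472 with AK4 vector and 1481 with control vector, a log2 ratio of -1.65 for the vector, and its second probe set gave -1.96. BACH1, the repressor that competes with NRF2, read 128 with AK4 shRNA, 112 with non-silencing shRNA, 53.9 with AK4 vector and 113 with control vector (-1.07). Both a partner and a repressor of NRF2 were therefore lower on the array labelled AK4 vector. BACH1 was only just past 2-fold, and 1 of its 3 probe sets was measured in CL1-0. With AK4 shRNA 0 of 12 reached 2-fold, and the ratio furthest from 0 was that of the related factor NFE2L3, at 0.67. Between the control arrays MAFF (-2.59), MAFG (-2.44) and BACH2 (-1.88, under the floor in CL1-5) were lower in CL1-5, and none of 13 was 2-fold higher.

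Of 23 measured NRF2 targets outside the members, 0 were at least 2-fold higher with AK4 vector and 1 lower, the dim CYP4F11 at -1.22, with 7.83 on the AK4 vector array and 18.3 on the control vector array. TRIM16 (0.9997), FECH (0.98) and BLVRA (0.96) lay just under 2-fold higher, and another probe set of FECH gave 1.16. In all, 13 were above 0 and 10 below, where 8231 and 6450 of 14681 measured genes were. With AK4 shRNA 0 of 23 passed, and UGDH, which makes UDP-glucuronate, had the ratio furthest from 0 at 0.41. In CL1-5 against CL1-0, 5 of 24 (20.8%) were 2-fold higher, near the background of 17.1%, and 9 (37.5%) lower, where it was 14.2%. BLVRB, a biliverdin reductase, was at -2.85, and IDH1, which makes cytosolic NADPH, at -2.76. ME1, the cytosolic malic enzyme and also a source of NADPH, was at 4.54 with CL1-0 under the floor, although another of its 3 probe sets gave only 0.15. CBR3, a carbonyl reductase, was at 2.02.

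Glutathione transferases outside the members had 4 of 13 genes (30.8%) at least 2-fold higher with AK4 vector, where the background was 3.22%, and 0 lower. GSTA4, which conjugates products of lipid peroxidation, read 349 with AK4 vector and 123 with control vector, and its second probe set gave a log2 ratio of 1.72. GSTM2 was at 1.46, GSTO2 at 1.19 and GSTM4 at 1.11, of which GSTM2 and GSTM4 are close copies and uncertain. With AK4 shRNA 0 of 14 passed, and GSTM5 was furthest from 0 at -0.41. In CL1-5 against CL1-0, 4 of 14 (28.6%) were 2-fold higher and 4 lower, where the background was 17.1% and 14.2%. The microsomal transferases MGST1 (4.98, with CL1-0 under the floor) and MGST2 (3.80) were far higher, GSTM2 was at 2.17 and GSTZ1 at -1.88.

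Cysteine supply and glutaredoxins had 0 of 13 genes past 2-fold with AK4 vector, and the glutamine transporter SLC1A5 was furthest from 0 at -0.98. With AK4 shRNA 0 of 14 passed, with OPLAH at 0.49. The control arrays had 3 of 14 (21.4%) at least 2-fold higher in CL1-5, near the background of 17.1%, with glutaredoxin GLRX highest at 3.26. Lower in CL1-5 were 6 (42.9%), where the background was 14.2%. Among these were CTH, which makes cysteine from cystathionine, at -3.88, CHAC1, which degrades glutathione, at -2.91, and the transporter SLC1A4 at -2.72. Of the SLC1A4 probe sets, 1 gave 0.27. Other peroxidases and repair enzymes had 0 of 16 past 2-fold with AK4 vector. Of these, 14 were above 0, where 8231 of 14681 measured genes were. Their median log2 ratio was 0.31, against 0.05 for all measured genes. SESN2, furthest from 0 at -0.96, was among the 2 below 0. With AK4 shRNA 0 of 15 passed, with MSRA at -0.30. Between the control arrays 1 of 16 (6.25%, background 17.1%) was at least 2-fold higher, TXNIP, an inhibitor of thioredoxin, at 2.13, and 3 (18.8%, background 14.2%) were lower, namely the stress-induced SESN2 at -3.06, NXN at -2.88 and MSRB2 at -1.63.

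**Figure D5:**
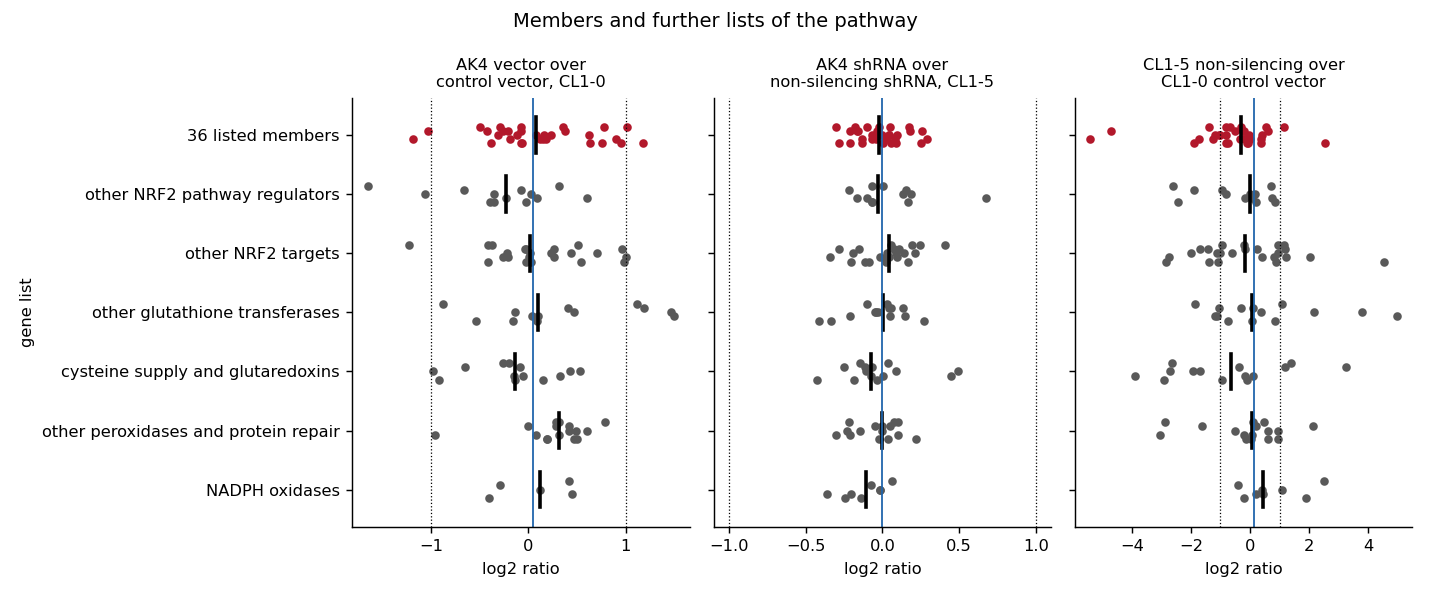
Log2 ratios of measured genes of the listed members (top row) and of 6 further lists in the 3 comparisons, 1 point a gene, with a black bar at each list's median, a blue line at the median of all measured genes and dotted lines at -1 and 1. The horizontal axes differ between panels. With AK4 vector the glutathione transferases have 4 points past 1 and the regulators 2 past -1, and with AK4 shRNA no point passes either line.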

How the data were processed

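The deposited values are probe set intensities on a linear scale, 1 column for each of the 4 arrays. The submitters' processing notes name MAS5 with no version, and no label states a scaling target or background correction. Deposited medians ran from 6.07 to 15.6, so arrays were brought to 1 trimmed mean (2% removed at each end, without 62 control probe sets). A floor was set at the 40th percentile over the arrays and log2 was taken. Symbols came from the platform annotation, updated by gene identifier for 99.9% of probe sets with 1 symbol. Computation used Python 3.11.15 and, for cyclic loess, limma 3.58.1. The procedure was tested on simulated data, built from a single array at a time with known changes in bright genes. That test checks the computation only and does not bear on the spread between cultures.

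The groups came from the sample titles. Members and lists were chosen with earlier results of these data known. Named genes were all members, AK4 and, per further list and comparison, up to 4 genes past 2-fold or else the one furthest from 0. NRF2 targets just under 2-fold higher with AK4 vector were also named. With 1 array a group, precision is limited by the number of arrays. A planned identity check of the AKR proteins was not run.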

Additional observations from a re-analysis of the deposited data

How the results depend on the processing

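No paired analysis was possible because each group is 1 array, and no array could be left out for the same reason. The alternatives were quantile normalization, cyclic loess, the values as deposited, a floor at the 60th percentile, no floor (log2 of the scaled value plus 1), the mean of all probe sets, and leaving out probe sets ending in _x_at or _s_at. With AK4 vector 2 members were at least 2-fold higher, but 1 as deposited, 1 with probe sets averaged and 0 without those probe sets, when TKT reversed to -0.73 and GPX1 had no probe set. Without those probe sets the lower members were 3 and not 2, because TXN was read from a dim probe set at -1.14. Between the control arrays 9 members were at least 2-fold lower, but 5 after quantile normalization, 5 after cyclic loess and 3 as deposited, when the median of all genes was 0.83 and not 0.13. There 2 members were at least 2-fold higher, but 6 as deposited, 1 without those probe sets, when GPX1 had none, and 1 on the other pair of arrays. Without those probe sets TXN, lower otherwise, reversed to 0.52, and GCLC was at -1.29 and past 2-fold. The medians of the members moved by less than the SD between probe sets of a gene under each alternative. That SD, 0.85 between the control arrays, describes single probe sets and is a wide measure for a median over many genes. As deposited, the median between the control arrays changed sign, from -0.31 to 0.46. With AK4 shRNA no member passed 2-fold under any of them. Over all genes, 2736 were 2-fold higher and 2272 lower in CL1-5, but 2343 and 1364 with probe sets averaged, 1763 and 1954 with the higher floor, and 7224 and 771 as deposited. With AK4 vector averaging gave 247 higher and 118 lower, against 473 and 171. With AK4 shRNA it gave 5 and 1, against 14 and 2. Without a second culture per group, none of these values carries a replicate error.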

Other observations

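NADPH oxidases, which make superoxide or hydrogen peroxide at membranes, were read as the source side of the same chemistry. With AK4 vector 0 of 5 measured genes passed 2-fold, and CYBA, the membrane subunit that several of these oxidases need, was furthest from 0 at 0.44. With AK4 shRNA 0 of 8 passed, and the organiser NOXO1 was at -0.36. Between the control arrays 3 of 8 were at least 2-fold higher in CL1-5 and 0 lower, where 17.1% and 14.2% of all measured genes were. CYBA read 462 in CL1-5 and 82.2 in CL1-0 (log2 ratio 2.49), although its second probe set gave 0.70. The catalytic subunits NOX1 (25.9 in CL1-5, 1.90) and NOX5 (14.6 in CL1-5, 1.07) were under the floor in CL1-0, and their signals were dim.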
